A study of Mus musculus with 45 samples.

Results

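Organoids of R1 mouse embryonic stem cells were examined here for 43 imprinted genes, listed by symbol and grouped by the chromosomal domain they share. All 43 were found among the 54532 genes of the count table, and 41 were kept because their mean level over the 45 libraries was at least 0.5 CPM (counts scaled to library size). Rtl1 and Kcnq1, at 0.21 and 0.22 CPM, fell below that limit, and Airn, at 0.98 CPM, was the nearest gene inside it. The organoids were wild type, grew clonally from stem cells embedded in Matrigel in N2B27 medium, and were labelled neural tube organoids. They were collected at day 2, before any treatment, and at 7 later times (8 h, 18 h and 30 h after day 2, then 42, 54, 66 and 78 h), either untreated or with 250 nM all-trans retinoic acid (RA) given at day 2. Each of the 15 conditions had 3 libraries, described as biological replicates, and all came from this 1 cell line. RA is a vitamin A derivative that patterns the neural tube. Poly(A) RNA was sequenced, with 17298632 to 39688686 counts per library.

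An imprinted gene is transcribed mainly from the copy inherited from 1 parent. The choice is usually, but not at every such gene, set by DNA methylation laid down in the germ line at control regions. These regions keep neighbouring genes in clusters under joint control, often through a long non-coding RNA. Many imprinted genes act on growth of the embryo and placenta, on metabolism or on brain function. Of the kept genes, 15 are known as maternally expressed and 22 as paternally expressed, while 4 differ by tissue. The counts do not separate the parental copies, so the levels below are sums over both and imprinting itself was not measured.

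Before the comparisons, 6 libraries must be set apart. R1 is a male line, and 4 Y-linked genes (Uty, Kdm5d, Eif2s3y and Ddx3y) averaged 22.9 to 89.5 CPM in 39 libraries. They averaged 1.22 to 3.65 CPM in the other 6, which were RA 8 h replicate 3, all 3 untreated 30 h libraries, and RA 30 h replicates 1 and 3. RA 30 h replicate 2 stood at 29.2 CPM. Since no untreated 30 h library lay outside this set, what is particular to these libraries and what belongs to 30 h without RA cannot be told apart. Neural progenitor markers (Sox1, Sox2, Sox3, Pax6, Nes and Cdh2) summed to 478 to 498 CPM at day 2. With RA against untreated they summed to 655 to 914 against 465 to 491 CPM at 30 h, to 892 to 1036 against 517 to 629 CPM at 42 h and to 1069 to 1241 against 950 to 1111 CPM at 78 h.

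RA moved a large share of the imprinted genes from 42 h onward. A gene is counted as changed, or called, when its adjusted p was under 0.01 and its log2 fold change was beyond 1 in either direction, in an edgeR fit of all genes over the 6 libraries compared. At 78 h, 16 of 41 imprinted genes rose and 5 fell, which is 51.2% of them, against 11.7% of all tested genes (7.66% up and 4.03% down). The corresponding counts were 17 and 5 of 41 at 42 h (53.7%, all genes 12.5%, of which 7.49% up and 4.96% down), 15 and 5 at 54 h (48.8%, all genes 13.2%, with 7.17% up and 5.99% down) and 15 and 5 at 66 h (48.8%, all genes 11.5%, with 7.06% up and 4.44% down). Earlier the counts were smaller, with 8 rises and 2 falls of 40 at 18 h (25%, all genes 10.9%, with 8.17% up and 2.76% down), 8 rises and 4 falls of 40 at 30 h (30%, all genes 8.45%, with 5.98% up and 2.48% down), and 0 rises and 1 fall of 40 at 8 h (2.5%, all genes 1.8%, with 1.26% up and 0.537% down). The median absolute log2 fold change at 78 h was 1.00 over the imprinted genes and 0.26 over all genes tested, and at 8 h these medians were 0.27 and 0.23. Across the 7 times, 27 of the 41 genes were called at least once (65.9%) and 14 never, against 24% called at least once among the 15901 genes of the table with a mean of at least 0.5 CPM that were tested. A rise was called at 3 or more times for 16 genes (39%, all genes 7.08%) and a fall for 5 (12.2%, all genes 4.23%), and 0 genes were called in both directions. The 16 include Airn, which met the 0.5 CPM limit only through its RA libraries. Genes listed as maternally expressed gave 6 rises and 4 falls of 15 at 78 h, and those listed as paternally expressed 10 rises and 1 fall of 22. In tissue measured in bulk, a rise can come from more cells of a type or from more RNA per cell, and these cannot be told apart.

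**Figure D1:**
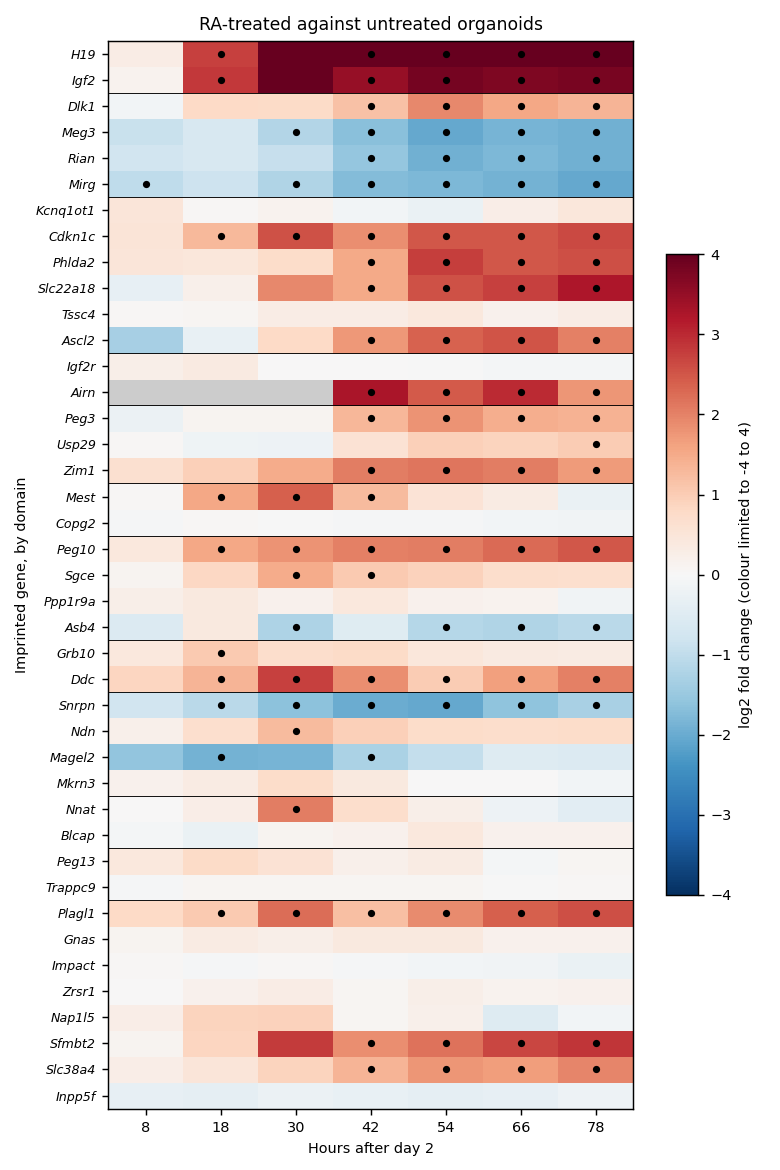
Log2 fold change of RA-treated over untreated organoids for the 41 imprinted genes (rows, grouped by domain) at 7 times after day 2 (columns), with a dot where the gene was called and grey where it was not tested. Rises (red) of H19, Igf2, Cdkn1c, Peg10, Plagl1 and Sfmbt2 stand against falls (blue) of Meg3, Rian, Mirg and Snrpn.

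Markers of other cell types differed between the arms as well. Markers of trophoblast (Cdx2, Elf5, Gata3, Eomes, Tfap2c and Krt7) summed to 185 to 190 CPM with RA at 78 h and to 25.2 to 26.8 CPM without, and 5 of 6 rose. Endoderm markers (Sox17, Gata4, Gata6, Foxa2, Afp and Ttr) summed to 20.2 to 23.2 CPM against 2.83 to 3.09 CPM, with 3 of 4 tested genes higher, and Afp and Ttr were at 0 in every untreated 78 h library. Foxa2 was the largest part of that RA sum, at 10.3 to 13.1 CPM, and which cells held it was not tested. With RA at 78 h, Afp held only 4, 24 and 34 counts and Ttr 0, 1 and 5 counts. Gata4 overlapped between the arms (1.57 to 1.96 with RA against 1.83 to 2.04 CPM). Sox17 held 9, 5 and 6 untreated counts and Gata6 held 13, 12 and 3. Both therefore entered the test at 78 h through the RA libraries. Mesoderm markers (T, Mesp1, Tbx6, Meox1, Hand1 and Kdr) summed to 25.3 to 28.5 CPM against 6.04 to 8.53 CPM, where 3 of 5 rose and T fell. Hand1 entered the test through the RA libraries too, with 28, 16 and 3 untreated counts. Of all tested genes at 78 h, 7.66% rose and 4.03% fell. Pluripotency markers, Pou5f1 among them, differed most in the middle of the course, at 235 to 350 CPM with RA against 868 to 1007 CPM at 42 h and 123 to 253 against 777 to 866 CPM at 54 h, and they overlapped at 78 h (270 to 513 against 478 to 578 CPM). Neuron markers summed to 91.8 to 98.9 CPM with RA against 242 to 280 CPM at 54 h and to 271 to 292 against 249.7 to 266 CPM at 78 h. Of that list only Stmn2 was lower in every RA library at 54 h (9.90 to 20.3 against 170 to 203 CPM). Neurog2, Dcx and Isl1 were higher there with RA, and Tubb3 and Elavl3 overlapped. At 78 h Stmn2 stood at 35.0 to 51.0 against 157 to 170 CPM. The other genes of the list were higher with RA at 78 h, as was Dcx (40.5 to 54.8 against 3.93 to 5.79 CPM). Members of the trophoblast, endoderm and mesoderm lists were called at 18 h and from 42 h to 78 h, and the part of these 5 lists in the changes described below was not tested.

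Promoter windows are shown for 4 genes of different patterns among those with a window at hand: Igf2 and Sfmbt2, which were low in the libraries poor in Y-chromosome genes, Mest, which rose with time in both arms, and Meg3, which fell under RA. RefSeq windows on GRCm38.p6 run from 250 bases before to 50 after a start site, on the gene's own strand. Capitals mark TGCCGC, or GCGGCA where it lies on the other strand, the letters that the zinc finger protein ZFP57 binds when they are methylated, searched on both strands. The Igf2 window is chr7:142661222-142661521 on the minus strand, and the Sfmbt2 window is chr2:10372186-10372485 on the plus strand. The Mest window is chr6:30737800-30738099 and the Meg3 window chr12:109540746-109541045, both on the plus strand.
Igf2: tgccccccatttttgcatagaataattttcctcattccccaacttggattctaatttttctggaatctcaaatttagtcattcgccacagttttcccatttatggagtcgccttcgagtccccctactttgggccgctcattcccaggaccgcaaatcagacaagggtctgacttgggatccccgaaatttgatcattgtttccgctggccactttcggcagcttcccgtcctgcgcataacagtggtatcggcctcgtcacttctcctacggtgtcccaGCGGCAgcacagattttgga
Sfmbt2: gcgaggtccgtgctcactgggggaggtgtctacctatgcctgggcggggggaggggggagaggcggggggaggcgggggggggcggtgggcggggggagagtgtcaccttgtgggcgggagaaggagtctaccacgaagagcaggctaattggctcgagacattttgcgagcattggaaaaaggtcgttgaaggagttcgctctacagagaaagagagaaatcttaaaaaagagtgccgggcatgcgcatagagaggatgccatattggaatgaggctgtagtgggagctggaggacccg
Mest: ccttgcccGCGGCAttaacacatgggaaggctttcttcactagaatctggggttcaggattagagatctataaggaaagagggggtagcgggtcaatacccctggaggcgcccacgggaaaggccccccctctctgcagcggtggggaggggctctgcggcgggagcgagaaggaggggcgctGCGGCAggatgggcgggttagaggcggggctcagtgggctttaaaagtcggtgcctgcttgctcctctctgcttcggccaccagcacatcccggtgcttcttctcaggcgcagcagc
Meg3: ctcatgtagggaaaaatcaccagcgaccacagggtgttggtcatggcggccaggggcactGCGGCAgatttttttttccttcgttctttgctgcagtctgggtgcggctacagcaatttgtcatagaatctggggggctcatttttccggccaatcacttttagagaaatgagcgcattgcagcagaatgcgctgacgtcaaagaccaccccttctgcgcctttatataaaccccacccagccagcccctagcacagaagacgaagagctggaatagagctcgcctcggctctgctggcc
These Igf2 and Meg3 windows held 1 match each, this Mest window 2 and this Sfmbt2 window 0. A gene with several start sites has several windows, of which the one with the most matches, then the most CpG dinucleotides, is printed, and 3 of the 4 windows of Igf2, 1 of the 2 of Meg3, 1 of the 3 of Mest and both of Sfmbt2 held 0 matches. Of 32851 windows of the same length for all genes, 11.6% held the letters. Among 53 windows of 34 imprinted genes, 11 did (20.8%), in 10 genes. The median number of CpG dinucleotides was 11 per window for the imprinted genes and 7 for all. A match is a description of the letters, and neither binding nor methylation was measured.

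The Igf2-H19 domain on chromosome 7 gave the largest log2 fold changes under RA of the 41 genes at 18 h and at each time from 42 h to 78 h. H19 is a maternally expressed long non-coding RNA (chr7:142575529-142578143, minus strand, GRCm38) and Igf2 encodes a paternally expressed fetal growth factor (chr7:142650766-142666816, minus strand). H19 stood at 4.6005, 4.397 and 3.82 CPM at day 2, at 6.09, 7.85 and 7.27 CPM untreated against 13.2, 11.9 and 0.718 CPM with RA at 8 h, and at 10.1, 9.28 and 8.003 against 60.6, 58.3 and 58.8 at 18 h. Levels of H19 at 30 h were 0.752, 1.098 and 0.919 CPM untreated and 5.12, 218 and 5.56 CPM with RA, and at 42 h they were 14.1, 17.2 and 14.4 and 365, 294 and 317. Later H19 values, untreated against RA, were 22.1, 18.9 and 23.5 against 444, 477 and 524 CPM at 54 h, 21.7, 22.9 and 16.9 against 389, 575 and 369 at 66 h, and 30.2, 24.7 and 26.8 against 529, 517 and 486 at 78 h. From 18 h onward the RA libraries of H19 lay above the untreated ones at every time, and H19 was called at 18, 42, 54, 66 and 78 h. At 18 h the log2 fold change was 2.73 ± 0.08 (adjusted p = 3.7e-11), given here and below ± its standard error with an adjusted p from edgeR. At 78 h it was 4.25 ± 0.09 (adjusted p = 1.2e-10), a 18.97-fold difference. At 30 h the log2 fold change was 6.42 ± 1.77 (adjusted p = 0.032), which did not pass the test, and RA 30 h replicate 2 stood far above replicates 1 and 3. Without that library it was 2.54 with an adjusted p of 2.8e-08. H19 was called at 30 h too without the filter on low counts (6.38, adjusted p = 0.001) and in 1 edgeR fit of all 45 libraries (6.44, adjusted p = 8.2e-07).

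Igf2 stood at 0.373, 0.3497 and 0.08303 CPM at day 2, at 0.604, 0.596 and 0.722 CPM untreated against 0.8805, 1.09 and 0.111 CPM with RA at 8 h, and at 0.632, 0.578 and 0.774 against 3.99, 4.78 and 5.61 at 18 h. Levels of Igf2 at 30 h were 0.113, 0.183 and 0.102 CPM untreated and 1.37, 13.1 and 0.812 CPM with RA, and at 42 h they were 1.49, 2.7003 and 2.31 and 27.8, 23.4 and 22.02. Later Igf2 values, untreated against RA, were 2.89, 3.39 and 2.58 against 48.4, 39.4 and 37.8 CPM at 54 h, 2.42, 2.903 and 2.98 against 29.8, 41.04 and 37.6 at 66 h, and 3.34, 3.66 and 2.57 against 42.3, 42.3 and 47.4 at 78 h. Igf2 followed H19 at a lower level, with no overlap between the arms from 18 h on and calls at the same 5 times. Its log2 fold change was 2.83 ± 0.21 (adjusted p = 2.6e-07) at 18 h and 3.81 ± 0.11 (adjusted p = 1.3e-09) at 78 h. The untreated 30 h libraries held only 3, 3 and 2 Igf2 counts, so no fold is given against them, and the 30 h difference was called when RA 30 h replicate 2 or replicate 3 was left out, without the filter, in the fit of all 45 libraries, with DESeq2 and with the replicate number as a block (adjusted p = 0.0033). In the annotation, 62.8% of the exon bases of Igf2 are shared with Gm49394 on the same strand, and reads there cannot be divided between them. The Igf2 levels and ranks per kilobase that follow use the full exon length and carry this limit. Per kilobase of exon, H19 stood at 208 CPM with RA at 78 h (rank 3 of 41 imprinted genes), up from 1.74 CPM at day 2 (rank 29), while Igf2 stood at 7.69 CPM (rank 23) and 0.047 CPM (rank 40).

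**Figure D2:**
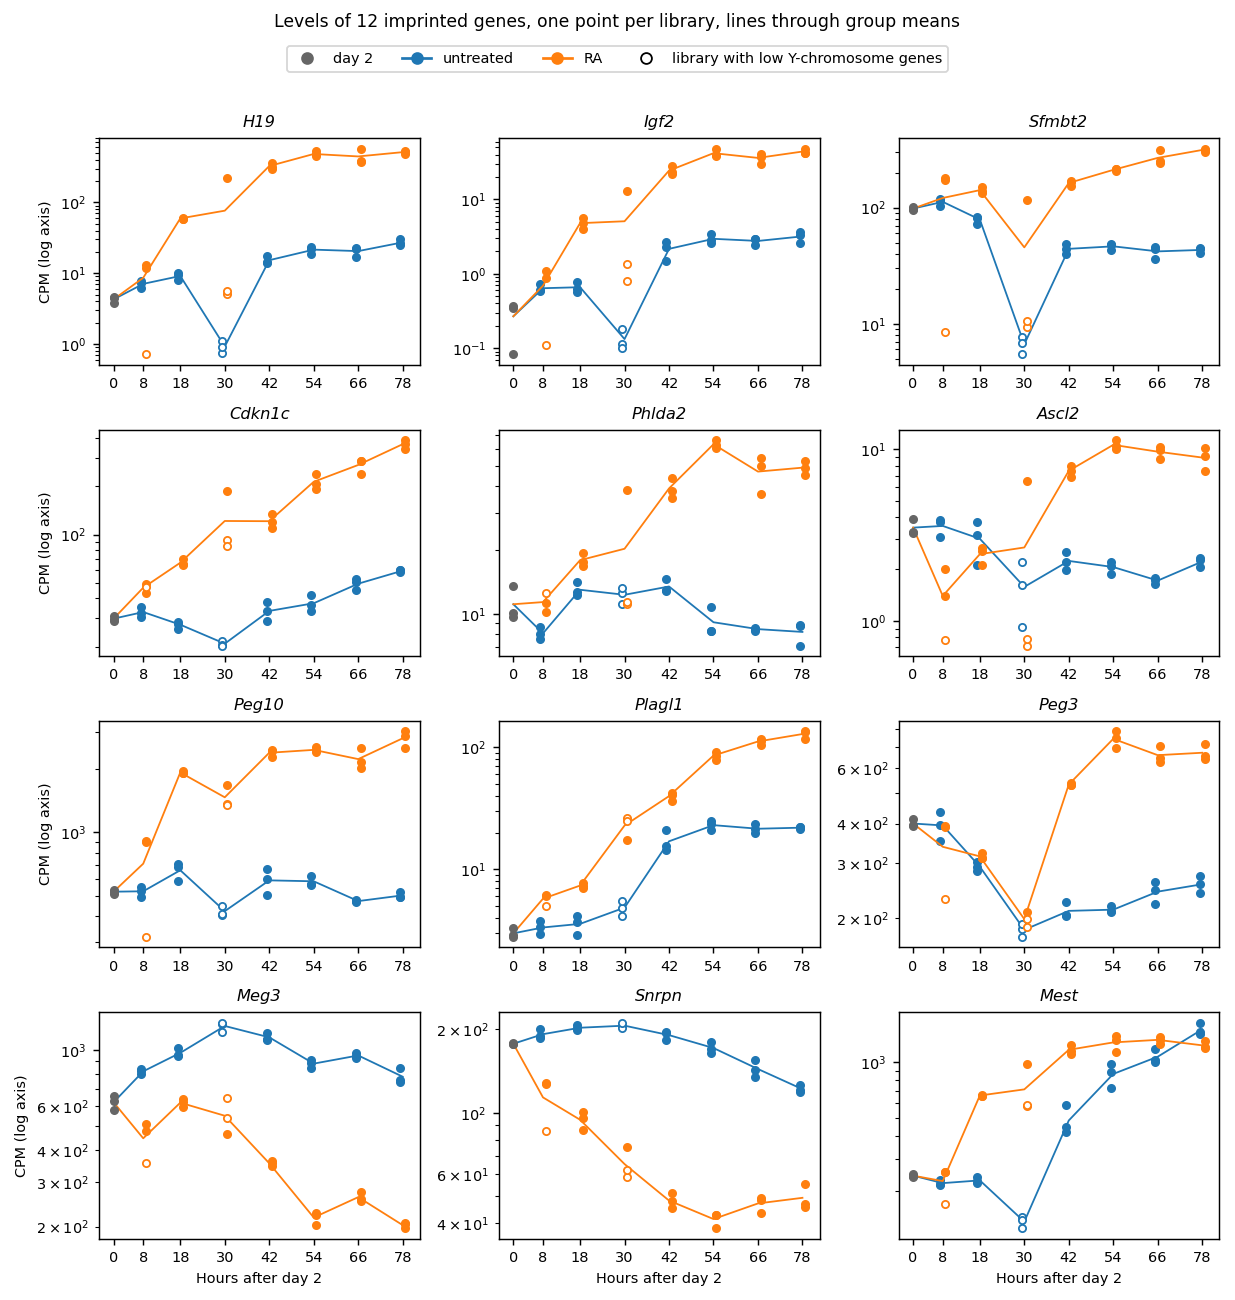
CPM (log axes) of 12 imprinted genes in every library against hours after day 2, with lines through the group means and open circles for the 6 libraries poor in Y-chromosome genes. H19, Igf2 and Sfmbt2 drop in those libraries, Meg3 and Snrpn separate by treatment in the downward direction from 8 h, and Mest converges by 78 h.

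Within the Dlk1-Meg3 domain on chromosome 12, the paternally expressed coding gene rose under RA and the 3 maternally expressed non-coding RNAs fell. Dlk1 encodes a transmembrane protein of the Notch ligand type that holds precursor cells undifferentiated. Dlk1 stood at 2.69, 1.95 and 2.53 CPM at day 2, at 2.14, 3.03 and 2.74 CPM untreated against 2.93, 2.9004 and 1.49 CPM with RA at 8 h, and at 3.61, 3.55 and 3.201 against 6.17, 5.48 and 6.13 at 18 h. Levels of Dlk1 at 30 h were 3.798, 3.84 and 3.42 CPM untreated and 4.63, 10.2 and 3.97 CPM with RA, and at 42 h they were 4.32, 4.87 and 5.05 and 11.9, 11.2 and 9.52. Later Dlk1 values, untreated against RA, were 4.04, 5.47 and 5.3002 against 19.8, 19.02 and 18.5 CPM at 54 h, 4.02, 4.94 and 4.55 against 11.5, 15.8 and 12.2 at 66 h, and 5.68, 6.54 and 5.52 against 13.3, 14.4 and 17.7 at 78 h. The arms separated from 18 h on, and Dlk1 was called at 42, 54, 66 and 78 h, with a log2 fold change of 1.93 ± 0.12 (adjusted p = 3.6e-07) at 54 h and 1.37 ± 0.13 (adjusted p = 7.3e-06) at 78 h.

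Meg3, the long non-coding RNA at the head of the maternal transcripts of this domain (chr12:109541001-109571726, plus strand), moved the other way. Meg3 stood at 626, 654 and 579.7 CPM at day 2, at 841, 801 and 824 CPM untreated against 475, 509 and 356 CPM with RA at 8 h, and at 958, 1015 and 945 against 640.2, 593 and 619.9 at 18 h. Levels of Meg3 at 30 h were 1269, 1282 and 1177 CPM untreated and 537, 463 and 646 CPM with RA, and at 42 h they were 1164, 1105 and 1092 and 349, 357 and 362. Later Meg3 values, untreated against RA, were 914, 885 and 845 against 222, 226 and 203 CPM at 54 h, 973, 944 and 932 against 275, 252 and 257 at 66 h, and 847, 744 and 757 against 205, 206 and 197 at 78 h. Every RA library lay below every untreated library at all 7 times. Meg3 reached the fold limit from 30 h onward, with a log2 fold change of -1.18 ± 0.12 (adjusted p = 6.5e-04) at 30 h and -1.94 ± 0.07 (adjusted p = 3.3e-09) at 78 h, and at 8 h it stood at -0.88 ± 0.12 (adjusted p = 0.0064). In the annotation, 6.79% of the exon bases of Meg3 lie opposite Gm26906.

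Rian, which hosts small nucleolar RNAs, ran beside Meg3. Rian stood at 593, 620.2 and 514 CPM at day 2, at 724, 668 and 694 CPM untreated against 423, 438 and 373 CPM with RA at 8 h, and at 847, 884 and 842 against 589.9, 516 and 543 at 18 h. Levels of Rian at 30 h were 1118, 1059 and 1104 CPM untreated and 591, 445 and 689 CPM with RA, and at 42 h they were 1117, 1029 and 993 and 349, 363 and 377. Later Rian values, untreated against RA, were 954, 878 and 861 against 243, 237 and 237 CPM at 54 h, 959, 896 and 906 against 276, 253 and 257 at 66 h, and 869, 809 and 799.8 against 219, 215 and 212 at 78 h. The arms of Rian did not overlap at any time, and it was called from 42 h to 78 h, ending at a log2 fold change of -1.92 ± 0.06 (adjusted p = 1.5e-09). Mirg hosts a group of microRNAs further along the same strand. Mirg stood at 48.7, 44.8 and 40.4 CPM at day 2, at 48.2, 45.5 and 52.3 CPM untreated against 27.8, 25.97 and 18.2 CPM with RA at 8 h, and at 48.5, 52.1 and 53.2 against 30.7, 25.9 and 29.1 at 18 h. Levels of Mirg at 30 h were 68.5, 68.8 and 60.7 CPM untreated and 27.7, 28.2 and 29.9 CPM with RA, and at 42 h they were 63.8, 60.97 and 60.1 and 18.8, 18.3 and 19.3. Later Mirg values, untreated against RA, were 48.5, 49.1 and 49.6 against 15.9, 14.1 and 12.7 CPM at 54 h, 51.4, 51.4 and 51.98 against 13.8, 13.99 and 13.8 at 66 h, and 45.9, 43.2 and 43.1 against 10.9, 9.52 and 11.2 at 78 h. Mirg was the gene called at 8 h, with a log2 fold change of -1.01 ± 0.15 (adjusted p = 0.0072), and leaving out any 1 of the 6 libraries at 8 h ended that call, at values from -1.12 without RA replicate 1 to -0.86 without RA replicate 3, as did library totals (-0.97) and the replicate block (adjusted p = 0.03). It was called again from 30 h to 78 h, and at 78 h its log2 fold change was -2.04 ± 0.08 (adjusted p = 6.5e-09).

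The Kcnq1 domain on chromosome 7 held 4 growth and lineage genes that rose and 2 genes that were never called. Cdkn1c encodes a cyclin-dependent kinase inhibitor that stops the cell cycle and is maternally expressed. Cdkn1c stood at 29.6, 28.9 and 31.1 CPM at day 2, at 30.8, 32.3 and 35.6 CPM untreated against 49.2, 43.5 and 47.1 CPM with RA at 8 h, and at 25.9, 27.7 and 28.6 against 64.5, 65.7 and 69.9 at 18 h. Levels of Cdkn1c at 30 h were 21.8, 20.6 and 20.3 CPM untreated and 92.9, 187 and 84.9 CPM with RA, and at 42 h they were 29.1, 37.96 and 33.2 and 134, 109 and 120.3. Later Cdkn1c values, untreated against RA, were 33.4, 36.3 and 42.2 against 239, 207 and 194 CPM at 54 h, 44.8, 50.7 and 52.7 against 238, 289 and 288 at 66 h, and 59.95, 58.3 and 60.4 against 367, 341 and 389 at 78 h. Its libraries did not overlap at any of the 7 times, and it was called from 18 h to 78 h, with a log2 fold change of 1.29 ± 0.06 (adjusted p = 2.5e-09) at 18 h and 2.63 ± 0.06 (adjusted p = 2.5e-10) at 78 h, 6.204-fold. The 30 h call of Cdkn1c was lost without untreated replicate 1, 2 or 3, where the log2 fold change was 2.54, 2.501 and 2.496. Its exons lie over those of Gm44732 on the opposite strand for 30.7% of their bases.

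Phlda2, which restrains placental growth, rose later. Phlda2 stood at 9.66, 10.04 and 13.6 CPM at day 2, at 8.67, 7.602 and 7.99 CPM untreated against 11.3, 10.2 and 12.5 CPM with RA at 8 h, and at 12.2, 12.6 and 14.1 against 16.7, 17.5 and 19.4 at 18 h. Levels of Phlda2 at 30 h were 11.1, 12.6 and 13.2 CPM untreated and 11.1, 38.3 and 11.3 CPM with RA, and at 42 h they were 13.003, 12.8 and 14.6 and 43.9, 35.2 and 37.9. Later Phlda2 values, untreated against RA, were 10.8, 8.26 and 8.28 against 66.1, 60.4 and 62.6 CPM at 54 h, 8.31, 8.59 and 8.502 against 36.9, 54.1 and 49.5 at 66 h, and 8.81, 8.74 and 7.08 against 48.6, 45.2 and 52.8 at 78 h. At 30 h RA replicate 2 alone was above the untreated libraries, and from 42 h all RA libraries were. The log2 fold change was 1.52 ± 0.09 (adjusted p = 3.7e-07) at 42 h and 2.59 ± 0.10 (adjusted p = 5.4e-09) at 78 h.

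Slc22a18 encodes a transporter of the plasma membrane at a low level here. Slc22a18 stood at 1.95, 2.05 and 2.08 CPM at day 2, at 1.21, 0.845 and 1.06 CPM untreated against 1.01, 0.816 and 0.608 CPM with RA at 8 h, and at 1.67, 1.53 and 1.39 against 1.13, 2.14 and 1.91 at 18 h. Levels of Slc22a18 at 30 h were 0.414, 0.671 and 0.817 CPM untreated and 1.47, 4.51 and 1.08 CPM with RA, and at 42 h they were 1.45, 1.29 and 0.974 and 4.38, 2.94 and 3.38. Later Slc22a18 values, untreated against RA, were 0.963, 0.639 and 0.916 against 4.93, 5.13 and 5.02 CPM at 54 h, 0.725, 0.988 and 1.004 against 4.43, 7.45 and 5.97 at 66 h, and 0.683, 0.981 and 1.06 against 8.63, 7.71 and 9.56 at 78 h. Slc22a18 was called at 42, 54, 66 and 78 h and its log2 fold change was 3.24 ± 0.18 (adjusted p = 8.9e-08) at 78 h. Ascl2 encodes a transcription factor needed for trophoblast of the placenta. Ascl2 stood at 3.23, 3.298 and 3.94 CPM at day 2, at 3.79, 3.08 and 3.85 CPM untreated against 2.01, 1.405 and 0.774 CPM with RA at 8 h, and at 3.16, 2.104 and 3.76 against 2.13, 2.56 and 2.65 at 18 h. Levels of Ascl2 at 30 h were 1.62, 2.195 and 0.919 CPM untreated and 0.718, 6.53 and 0.782 CPM with RA, and at 42 h they were 2.1999, 1.98 and 2.52 and 7.504, 6.91 and 8.02. Later Ascl2 values, untreated against RA, were 2.201, 1.88 and 2.09 against 10.01, 10.4 and 11.3 CPM at 54 h, 1.72, 1.64 and 1.79 against 8.75, 9.902 and 10.4 at 66 h, and 2.34, 2.05 and 2.26 against 9.18, 7.44 and 10.2 at 78 h. At 8 h all RA libraries of Ascl2 were below the untreated ones, at a log2 fold change of -1.33 ± 0.32 (adjusted p = 0.042), which missed the threshold. From 42 h all were above, and the log2 fold change was 2.504 ± 0.13 (adjusted p = 2.7e-07) at 66 h. RA 30 h replicate 2 was above the untreated libraries and replicates 1 and 3 below them, and without replicate 2 the 30 h log2 fold change was -1.07 in place of 0.79, with neither passing. Kcnq1ot1, the paternal non-coding RNA of the domain, and Tssc4 were called at 0 of 7 times.

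In the Igf2r-Airn domain on chromosome 17, 1 gene rose and the other was not called. Airn is the paternal transcript that runs antisense through the maternally expressed receptor gene Igf2r. Airn stood at 0.0829, 0 and 0.332 CPM at day 2, at 0.0549, 0.149 and 0.144 CPM untreated against 0.2096, 0.227 and 0 CPM with RA at 8 h, and at 0.135, 0.0413 and 0.107 against 0.564, 0.371 and 0.174 at 18 h. Levels of Airn at 30 h were 0.1504, 0.122 and 0.102 CPM untreated and 0.196, 0.981 and 0.842 CPM with RA, and at 42 h they were 0.196, 0.228 and 0.144 and 2.14, 1.49 and 1.97. Later Airn values, untreated against RA, were 0.321, 0.319 and 0.7198 against 3.54, 2.399 and 1.96 CPM at 54 h, 0.604, 0.309 and 0.314 against 4.17, 3.17 and 2.36 at 66 h, and 1.19, 0.952 and 0.781 against 3.504, 3.003 and 3.26 at 78 h. Airn was tested from 42 h, where its log2 fold change was 3.26 ± 0.34 (adjusted p = 2.0e-05), and it rose at all 4 tested times. It met the 0.5 CPM limit only through its RA libraries. At 42 h it held 5, 6 and 4 counts untreated and 46, 39 and 50 with RA. It therefore passed the filter on low counts there through the RA libraries. Igf2r, which clears IGF2, was called at 0 of 7 times and stood at 179, 212 and 221 CPM untreated and 175, 198 and 196 CPM with RA at 78 h. The strand setting used in counting is not given in the sources used here, so reads of Airn and Igf2r that overlap may not be fully separated.

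Peg3 encodes a paternally expressed zinc finger protein, with Usp29, a ubiquitin protease gene, and the maternally expressed zinc finger gene Zim1 beside it. Peg3 stood at 395, 413 and 392 CPM at day 2, at 436, 396 and 352 CPM untreated against 389, 393 and 231 CPM with RA at 8 h, and at 301, 282 and 292 against 310.2, 324 and 310.2 at 18 h. Levels of Peg3 at 30 h were 185, 192 and 175 CPM untreated and 199, 209.6 and 188 CPM with RA, and at 42 h they were 206, 225 and 203 and 539, 529 and 529. Later Peg3 values, untreated against RA, were 210.4, 219 and 210.04 against 787, 696 and 749 CPM at 54 h, 246, 223 and 260.3 against 648, 704 and 627 at 66 h, and 239.9, 257 and 273 against 641, 658 and 717 at 78 h. Peg3 had its lowest group mean at 30 h in both arms, and the arms did not overlap at 18 h or from 42 h on, with a log2 fold change of 1.32 ± 0.05 (adjusted p = 2.1e-08) at 42 h and 1.404 ± 0.06 (adjusted p = 1.6e-08) at 78 h. Zim1 stood at 2.03, 1.75 and 2.32 CPM at day 2, at 2.41, 2.04 and 1.06 CPM untreated against 3.02, 3.94 and 1.55 CPM with RA at 8 h, and at 2.08, 1.53 and 1.92 against 3.78, 3.63 and 3.31 at 18 h. Levels of Zim1 at 30 h were 0.564, 1.098 and 1.33 CPM untreated and 2.45, 2.97 and 2.86 CPM with RA, and at 42 h they were 2.87, 1.48 and 1.73 and 8.996, 7.29 and 9.24. Later Zim1 values, untreated against RA, were 2.797, 1.96 and 2.49 against 11.8, 10.6 and 9.78 CPM at 54 h, 3.11, 2.502 and 3.89 against 13.3, 13.2 and 12.5 at 66 h, and 5.503, 4.01 and 3.65 against 15.4, 13.8 and 13.1 at 78 h. Zim1 was called at the same 4 times as Peg3 and stood at a log2 fold change of 2.14 ± 0.16 (adjusted p = 1.6e-06) at 54 h. Usp29 was called at 78 h alone, where its untreated libraries held 7.52, 8.98 and 9.98 CPM and its RA libraries 16.7, 17.4 and 18.5 CPM (log2 fold change 1.00 ± 0.10, adjusted p = 1.5e-05). That call was lost without untreated replicate 1 or 2 (0.90 and 0.99) or RA replicate 3 (0.96), with RLE size factors (0.993) and with DESeq2 (0.997).

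Mest, on chromosome 6, encodes a paternally expressed protein with a hydrolase fold and showed a rise under RA that the untreated organoids later matched. Mest stood at 242, 248 and 239.9 CPM at day 2, at 219, 216 and 229 CPM untreated against 255, 256 and 171 CPM with RA at 8 h, and at 239, 221 and 227 against 661, 662 and 659 at 18 h. Levels of Mest at 30 h were 144, 126 and 140.2 CPM untreated and 576, 975 and 589 CPM with RA, and at 42 h they were 417, 587 and 448 and 1114, 1235 and 1156. Later Mest values, untreated against RA, were 729, 891 and 974 against 1139, 1324 and 1381 CPM at 54 h, 1001, 1031 and 1184 against 1326, 1264 and 1379 at 66 h, and 1425, 1456 and 1641 against 1192, 1310.3 and 1203 at 78 h. Mest was called at 18, 30 and 42 h, with a log2 fold change of 2.39 ± 0.23 (adjusted p = 4.2e-04) at 30 h. By 78 h the RA libraries lay below the untreated ones, with a log2 fold change of -0.27 ± 0.06 (adjusted p = 0.0049), which is under the fold limit. Copg2, the coat protein gene that overlaps Mest tail to tail, was called at 0 of 7 times.

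The Peg10-Sgce domain lies on chromosome 6 as well. Peg10 derives from a retrotransposon, is paternally expressed and is required for the placenta. Peg10 stood at 522, 535 and 509.9 CPM at day 2, at 527, 552 and 494 CPM untreated against 896, 914 and 319 CPM with RA at 8 h, and at 706, 589 and 686 against 1908, 1957 and 1903 at 18 h. Levels of Peg10 at 30 h were 449, 407 and 411 CPM untreated and 1368, 1675 and 1353 CPM with RA, and at 42 h they were 505, 666 and 602 and 2437, 2445 and 2273. Later Peg10 values, untreated against RA, were 569, 621 and 565 against 2534, 2403 and 2448 CPM at 54 h, 469.7, 478 and 466 against 2013, 2505 and 2159 at 66 h, and 491, 522 and 493 against 2504, 2858 and 3019 at 78 h. In RA 8 h replicates 1 and 2 Peg10 was above every untreated 8 h library, and in replicate 3 it was below all of them. It was called from 18 h to 78 h, with a log2 fold change of 1.55 ± 0.06 (adjusted p = 3.7e-10) at 18 h and 2.49 ± 0.08 (adjusted p = 1.3e-09) at 78 h. Peg10 made up 23% of the summed CPM per kilobase of the 41 genes with RA at 78 h and 6.64% without.

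Sgce, the sarcoglycan gene that shares the Peg10 start region, was called at 30 and 42 h, with a log2 fold change of 1.496 ± 0.16 (adjusted p = 7.0e-04) at 30 h and levels of 9.402, 7.32 and 9.96 CPM untreated and 23.3, 27.8 and 24.2 CPM with RA. Its 42 h call was lost without untreated replicate 3, at 0.996. Asb4, which encodes a subunit of a ubiquitin ligase, was lower under RA. Asb4 stood at 1.16, 1.599 and 1.41 CPM at day 2, at 1.54, 1.74 and 1.49 CPM untreated against 1.01, 1.45 and 0.774 CPM with RA at 8 h, and at 2.12, 0.9901 and 1.47 against 2.43, 1.48 and 2.04 at 18 h. Levels of Asb4 at 30 h were 6.36, 6.16 and 7.15 CPM untreated and 2.19, 3.43 and 2.77 CPM with RA, and at 42 h they were 4.203, 3.69 and 3.89 and 2.89, 2.29 and 3.22. Later Asb4 values, untreated against RA, were 4.04, 4.91 and 4.68 against 1.62, 1.68 and 2.99 CPM at 54 h, 4.11, 4.97 and 5.58 against 2.09, 2.12 and 2.07 at 66 h, and 3.06, 5.35 and 4.68 against 2.72, 1.67 and 1.68 at 78 h. Asb4 was called at 30, 54, 66 and 78 h, with a log2 fold change of -1.21 ± 0.15 (adjusted p = 1.3e-04) at 66 h. The 30 h call of Asb4 was lost without untreated replicate 1, 2 or 3 (-1.29, -1.302 and -1.19) and without RA replicate 1 or 3 (-1.08 and -1.21), with library totals in place of TMM factors (-1.08) and with the replicate block (-1.25). At 54 h it was lost without untreated replicate 2 or 3 (-1.08 and -1.12) or RA replicate 2 (-0.99), and at 78 h without untreated replicate 2 (-0.93) or RA replicate 2 or 3 (-0.96 and -0.97). Ppp1r9a was called at 0 of 7 times.

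Ddc, a neighbour of Grb10 on chromosome 11, encodes the decarboxylase that makes dopamine and serotonin. Ddc stood at 16.9, 17.7 and 15.7 CPM at day 2, at 12.8, 13.7 and 15.1 CPM untreated against 25.6, 27.3 and 21.8 CPM with RA at 8 h, and at 10.9, 11.5 and 11.6 against 28.4, 30.3 and 28.97 at 18 h. Levels of Ddc at 30 h were 4.93, 4.15 and 5.46 CPM untreated and 35.4, 30.3 and 31.2 CPM with RA, and at 42 h they were 4.95, 5.51 and 5.698 and 20.4, 18.6 and 20.7. Later Ddc values, untreated against RA, were 5.14, 5.55 and 6.09 against 7.05, 13.2 and 13.9 CPM at 54 h, 4.35, 4.63 and 3.42 against 12.6, 13.4 and 12.5 at 66 h, and 3.09, 3.15 and 2.82 against 12.3, 14.1 and 10.2 at 78 h. In untreated organoids Ddc declined and in RA-treated ones it peaked at 18 to 30 h, with no overlap at any time. The log2 fold change was 2.73 ± 0.15 (adjusted p = 4.4e-05) at 30 h and 2.03 ± 0.14 (adjusted p = 8.0e-07) at 78 h. The 54 h call of Ddc was lost without untreated replicate 1, 2 or 3 (0.96, 0.999 and 1.07) and without RA replicate 2 or 3 (0.89 and 0.83), with RLE size factors (0.997) and with the replicate block (0.98). Grb10, an adaptor of the insulin receptor, was called at 18 h alone, at a log2 fold change of 1.05 ± 0.05 (adjusted p = 2.2e-09), with untreated libraries at 314, 284 and 307 CPM and RA libraries at 619, 617 and 618 CPM.

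In the Snrpn domain the members moved in different directions. Snrpn encodes a spliceosome protein abundant in brain. Snrpn stood at 178, 177 and 177 CPM at day 2, at 189, 186 and 199.8 CPM untreated against 127, 128 and 85.6 CPM with RA at 8 h, and at 202, 207 and 198 against 95.7, 100.5 and 86.9 at 18 h. Levels of Snrpn at 30 h were 205, 202 and 211 CPM untreated and 58.8, 75.1 and 62.2 CPM with RA, and at 42 h they were 195, 183 and 193 and 45.5, 47.99 and 51.4. Later Snrpn values, untreated against RA, were 180.1, 169 and 164 against 38.4, 42.98 and 42.9 CPM at 54 h, 143, 154 and 134 against 48.4, 43.6 and 49.5 at 66 h, and 118, 126 and 121 against 55.3, 47.1 and 45.8 at 78 h. All RA libraries of Snrpn were below all untreated ones at the 7 times, and it was called from 18 h to 78 h, with the lowest value at 54 h (log2 fold change -2.06 ± 0.07, adjusted p = 4.7e-09). With library totals its 18 h value was -0.975, which is not called. Magel2, a regulator of ubiquitin ligases in the hypothalamus, was lower under RA at every time and was called at 18 and 42 h. Magel2 at 18 h stood at 19.99, 16.96 and 20.2 CPM untreated and 4.25, 5.44 and 5.52 CPM with RA (log2 fold change -1.898 ± 0.11, adjusted p = 2.0e-08). At 30 h the RA libraries of Magel2 held 3.56, 9.87 and 1.804 CPM against 18.8, 20.1 and 17.004 CPM, which was not called (adjusted p = 0.039) and was called without the filter, in the fit of all 45 libraries and without RA replicate 2, in the last at -2.83 with an adjusted p of 4.4e-10. Ndn, a growth suppressor of neurons, rose at 30 h (log2 fold change 1.26 ± 0.15, adjusted p = 0.001), at 26.02, 23.2 and 22.8 CPM untreated and 56.9, 67.2 and 48.4 CPM with RA, and was not called without untreated replicate 2 or 3 (1.203 and 1.195). Mkrn3 was called at 0 of 7 times.

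Among the genes outside these clusters, Plagl1 encodes a paternally expressed zinc finger factor that limits proliferation. Plagl1 stood at 2.901, 2.798 and 3.28 CPM at day 2, at 3.35, 2.93 and 3.75 CPM untreated against 6.08, 6.16 and 5.03 CPM with RA at 8 h, and at 2.89, 4.17 and 3.68 against 7.73, 7.34 and 7.05 at 18 h. Levels of Plagl1 at 30 h were 4.85, 5.55 and 4.19 CPM untreated and 26.2, 17.3 and 25.1 CPM with RA, and at 42 h they were 14.4, 21.1 and 15.5 and 40.7, 36.4 and 42.5. Later Plagl1 values, untreated against RA, were 20.9, 24.8 and 23.5 against 85.4, 79.4 and 92.3 CPM at 54 h, 19.96, 23.3 and 21.3 against 118, 113 and 104 at 66 h, and 21.5, 22.2 and 22.3 against 133, 117 and 136 at 78 h. Plagl1 had no overlap between the arms at any time and was called from 18 h to 78 h, with a log2 fold change of 2.23 ± 0.20 (adjusted p = 3.2e-04) at 30 h and 2.56 ± 0.07 (adjusted p = 4.1e-10) at 78 h. At 18 h it was not called without untreated replicate 1 (0.92). Unlike H19, its values in RA 30 h replicates 1 and 3 were above that of replicate 2. Nnat, a membrane protein gene of the developing brain, was called at 30 h (log2 fold change 2.05 ± 0.20, adjusted p = 4.8e-04) with untreated libraries at 15.1, 16.6 and 13.8 CPM and RA libraries at 57.6, 80.2 and 49.7 CPM.

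Sfmbt2 encodes a Polycomb protein, is paternally expressed and acts in the placenta. Sfmbt2 stood at 98.1, 102 and 94.8 CPM at day 2, at 115, 118 and 103 CPM untreated against 181, 174 and 8.45 CPM with RA at 8 h, and at 82.3, 72.7 and 81.9 against 135, 150.5 and 139 at 18 h. Levels of Sfmbt2 at 30 h were 7.75, 6.77 and 5.46 CPM untreated and 9.43, 117 and 10.5 CPM with RA, and at 42 h they were 39.95, 48.6 and 44.03 and 155, 168 and 166. Later Sfmbt2 values, untreated against RA, were 47.9, 48.5 and 42.8 against 213, 216 and 206 CPM at 54 h, 45.97, 43.7 and 36.3 against 240.2, 315 and 249.7 at 66 h, and 44.4, 44.7 and 40.7 against 302, 323 and 317 at 78 h. Sfmbt2 was called at 42, 54, 66 and 78 h, and its log2 fold change was 2.87 ± 0.06 (adjusted p = 1.6e-10) at 78 h, a 7.33-fold difference. At 30 h the log2 fold change was 2.79 ± 0.99 (adjusted p = 0.072), which did not pass the test, and without RA 30 h replicate 2 it was 0.55. It was called at 30 h without the filter on low counts (2.75, adjusted p = 0.0081) and in the edgeR fit of all 45 libraries (2.80, adjusted p = 4.6e-04). At 8 h the log2 fold change was 0.11 ± 0.81 (adjusted p = 0.95) and became 0.65 with an adjusted p of 4.0e-06 without RA replicate 3. Slc38a4, an amino acid transporter gene of placenta and liver, was higher under RA at every time from 18 h. Slc38a4 stood at 107, 109 and 108 CPM at day 2, at 86.3, 93.7 and 86.1 CPM untreated against 122, 105 and 88.3 CPM with RA at 8 h, and at 84.8, 69.6 and 86.6 against 104, 122 and 106 at 18 h. Levels of Slc38a4 at 30 h were 60.02, 55.8 and 56.7 CPM untreated and 98.3, 129 and 94.4 CPM with RA, and at 42 h they were 60.8, 71.3 and 67.9 and 187, 169 and 158. Later Slc38a4 values, untreated against RA, were 54.8, 57.1 and 49.9 against 186, 193 and 182 CPM at 54 h, 55.7, 57.9 and 55.5 against 142, 207 and 181 at 66 h, and 51.8, 57.98 and 54.2 against 205, 211 and 209 at 78 h. Slc38a4 was called from 42 h to 78 h, ending at a log2 fold change of 1.95 ± 0.05 (adjusted p = 5.9e-10). The genes Blcap, Peg13, Trappc9, Gnas, Impact, Zrsr1, Nap1l5 and Inpp5f were called at 0 of 7 times. Of these, Inpp5f had lower values in every RA library than in every untreated one at all 7 times, within the fold limit, as at 54 h (log2 fold change -0.34 ± 0.06, adjusted p = 7.9e-04).

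RA 8 h replicate 3 differed from its companions in a few imprinted genes. On the scale of log2(CPM + 1), its difference from the mean of the other 2 replicates was -4.24 for Sfmbt2, -2.98 for H19, -1.50 for Peg10 and -1.40 for Sgce. These 4 of 41 genes were below -1 (9.76%) and 0 above 1, against 5.18% below -1 and 0.572% above 1 among the 15905 genes of the table with a mean of at least 0.5 CPM. Sfmbt2 read 181, 174 and 8.45 CPM in the 3 replicates, and Sgce 7.88, 8.84 and 2.54 CPM. In that library the trophoblast markers summed to 53.8 CPM against 129 and 122 CPM in the others, and the endoderm markers to 7.24 CPM against 11.4 and 11.0 CPM. Endoderm marker Gata6 was not lower there (5.58 against 4.49 and 3.49 CPM). The mesoderm markers summed to 1.66 CPM against 8.68 and 9.47 CPM, and the pluripotency markers to 1487 CPM against 1115 and 1025 CPM, with 1347 to 1535 CPM in the untreated 8 h libraries. Without it, 2 imprinted genes were called at 8 h, Ascl2 and Magel2, both lower with RA.

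The untreated 30 h libraries dipped in part of the same genes. Against untreated 18 h, 1 imprinted gene rose and 5 fell of 40 at 30 h (15%, all genes 10.3%, with 3.37% up and 6.97% down). Against untreated 30 h, 6 rose and 0 fell of 40 at 42 h (15%, all genes 4.33%, with 4.03% up and 0.298% down). These 2 comparisons share the 30 h libraries, so that a dip in them appears in both. H19, Igf2 and Sfmbt2 were called in both, and in the edgeR fit of all 45 libraries the fall from 18 h to 30 h was not called for H19 (-3.33, adjusted p = 0.014) or Igf2 (-2.36, adjusted p = 0.12). H19 changed by -3.32 ± 0.19 from 18 h to 30 h and by 4.095 ± 0.17 from 30 h to 42 h. Sfmbt2 changed by -3.54 ± 0.09 and then by 2.73 ± 0.11. Igf2 went from 14, 14 and 29 counts at 18 h to 3, 3 and 2 counts at 30 h and to 38, 71 and 64 counts at 42 h. The other falls at 30 h were those of Slc22a18 (-1.29 ± 0.31) and Ddc (-1.21 ± 0.12), and Asb4 rose (2.13 ± 0.21). The call of Slc22a18 was lost without replicate 1 of untreated 18 h (-1.22) or of untreated 30 h (-0.99), and with the replicate block (-1.28). Mest (1.84 ± 0.10), Plagl1 (1.83 ± 0.15) and Nnat (1.23 ± 0.09) made up the other rises at 42 h. The trophoblast markers summed to 46.2 to 53.7 CPM at 18 h and to 19.4 to 22.8 CPM at 30 h without RA, and the endoderm markers to 2.56 to 3.02 CPM and 0.715 to 0.915 CPM.

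Among the RA 30 h libraries, replicates 1 and 3 differed from replicate 2 in more of the imprinted genes. On the scale of log2(CPM + 1), their difference from replicate 2 was -5.11 for H19, -3.42 for Sfmbt2, -2.77 for Igf2 and -2.11 for Ascl2. It was -1.68 for Phlda2 and -1.60 for Magel2. In all 9 of 41 genes were below -1 (22%) and 0 above 1, against 3.95% and 2.26% of the 15905 genes. The trophoblast markers summed to 25.0 and 25.5 CPM in replicates 1 and 3 and to 85.5 CPM in replicate 2, and the endoderm markers to 4.57, 4.48 and 26.0 CPM. The mesoderm markers were lower in replicates 1 and 3 as well (19.5 and 15.4 against 42.2 CPM), as were the neuron markers (131 and 125 against 173 CPM), and the neural progenitor markers were higher (914 and 863 against 655 CPM). Replicates 2 and 3 carried neighbouring library numbers and replicate 1 a much lower one. That lower number was next to those of the untreated 30 h libraries, which were also poor in Y-chromosome genes. RA 8 h replicate 3 was numbered between libraries that were not poor in them. Whether the order of library numbers has a part in this split was not tested. Plagl1, Ppp1r9a, Usp29 and Rian were higher in replicates 1 and 3, by 0.51 to 0.92. H19 and Sfmbt2 were below -1 in all 3 of these library differences, 2 of 41 genes (4.88%), against 109 of the 15905 genes (0.685%). Whether the markers or the Y-chromosome genes have a part in these differences was not tested.

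**Figure D3:**
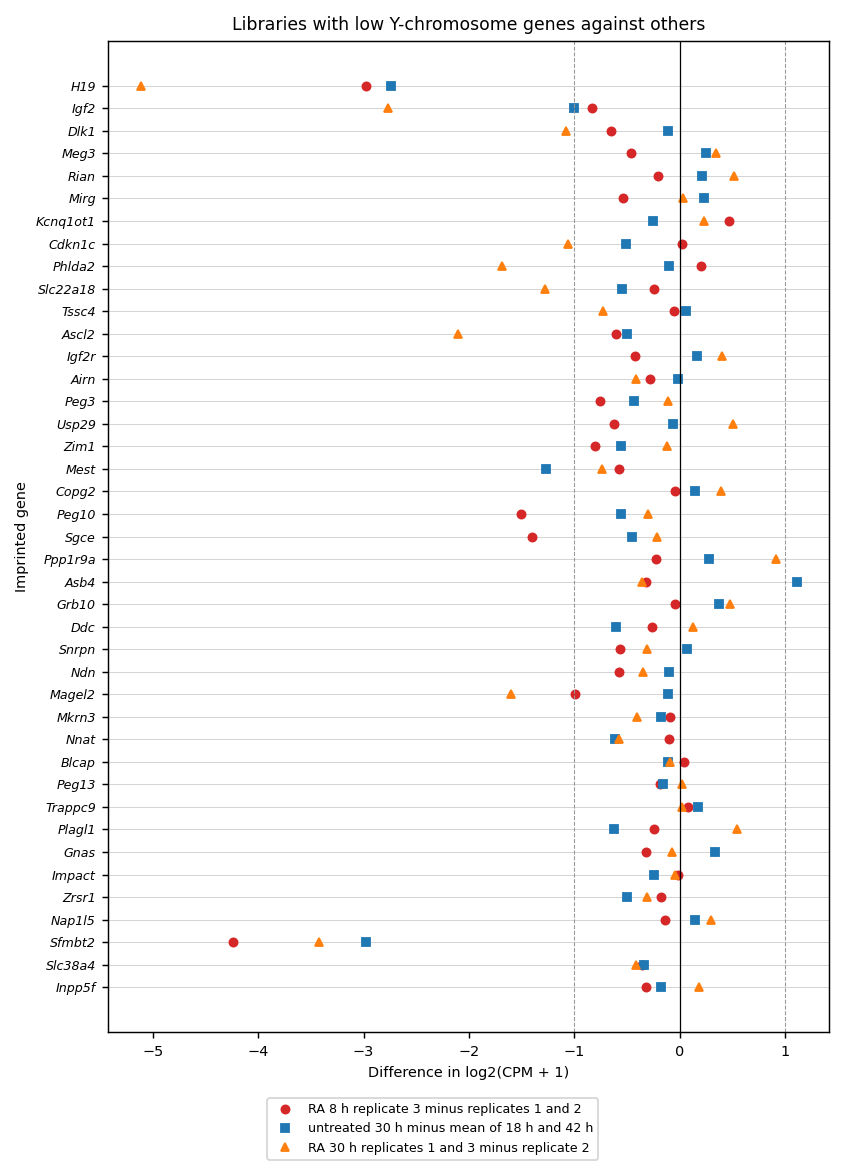
Difference in log2(CPM + 1) for each of the 41 imprinted genes between libraries poor in Y-chromosome genes and the libraries named in the legend, with dashed lines at -1 and 1. H19 and Sfmbt2 lie left of -1 for all 3 differences, while most genes lie between -1 and 1.

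Levels at 78 h were compared with day 2 in each arm, and these comparisons share the day 2 libraries. Without RA, 14 of 41 rose and 3 fell (41.5%, all genes 34%, with 20.3% up and 13.6% down), and 24 were not called. With RA, 19 rose and 4 fell (56.1%, all genes 37.4%, with 22.9% up and 14.5% down). The rises without RA were led by Nnat (4.18 ± 0.12), from 9.698, 9.74 and 13.2 CPM to 179.7, 183 and 233 CPM. Igf2 (3.57 ± 0.35), Plagl1 (2.87 ± 0.11) and H19 (2.67 ± 0.11) rose as well, and with RA they stood at 7.36 ± 0.19, 5.42 ± 0.10 and 6.901 ± 0.08. Igf2 started from few counts at day 2, and without day 2 replicate 3 its values were 3.11 without RA and 6.89 with RA. Airn, called in both arms, held 2, 0 and 8 counts at day 2, so no fold is given against them. Mest (2.63 ± 0.07), Sgce (2.33 ± 0.09), Peg13 (2.34 ± 0.11), Grb10 (2.26 ± 0.07) and Ndn (2.15 ± 0.08) were other rises, and the corresponding values with RA were 2.34 ± 0.05, 2.99 ± 0.09, 2.400 ± 0.13, 2.57 ± 0.05 and 2.88 ± 0.08. Gnas, which encodes the stimulatory G protein subunit, rose by 1.61 ± 0.07 without and 1.76 ± 0.06 with RA. Ddc (-2.47 ± 0.11), Sfmbt2 (-1.18 ± 0.06) and Slc22a18 (-1.14 ± 0.25, not called without untreated 78 h replicate 1, at -0.985) fell without RA, and the fall of Sfmbt2 was not called in the fit of all 45 libraries (-1.23, adjusted p = 0.047). With RA Sfmbt2 and Slc22a18 rose (1.68 ± 0.05 and 2.09 ± 0.15) and Ddc stood at -0.46 ± 0.12, which was not called. Cdkn1c was at 0.99 ± 0.06 without RA, under the threshold, and rose by 3.61 ± 0.07 with it. Peg10 stood at -0.06 ± 0.05 without RA and rose by 2.42 ± 0.07 with it. The 4 falls with RA were those of Mirg (-2.08 ± 0.09), Snrpn (-1.84 ± 0.07), Meg3 (-1.61 ± 0.05) and Rian (-1.42 ± 0.06), and without RA these genes stood at -0.02 ± 0.07, -0.55 ± 0.05, 0.34 ± 0.07 and 0.52 ± 0.07.

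**Figure D4:**
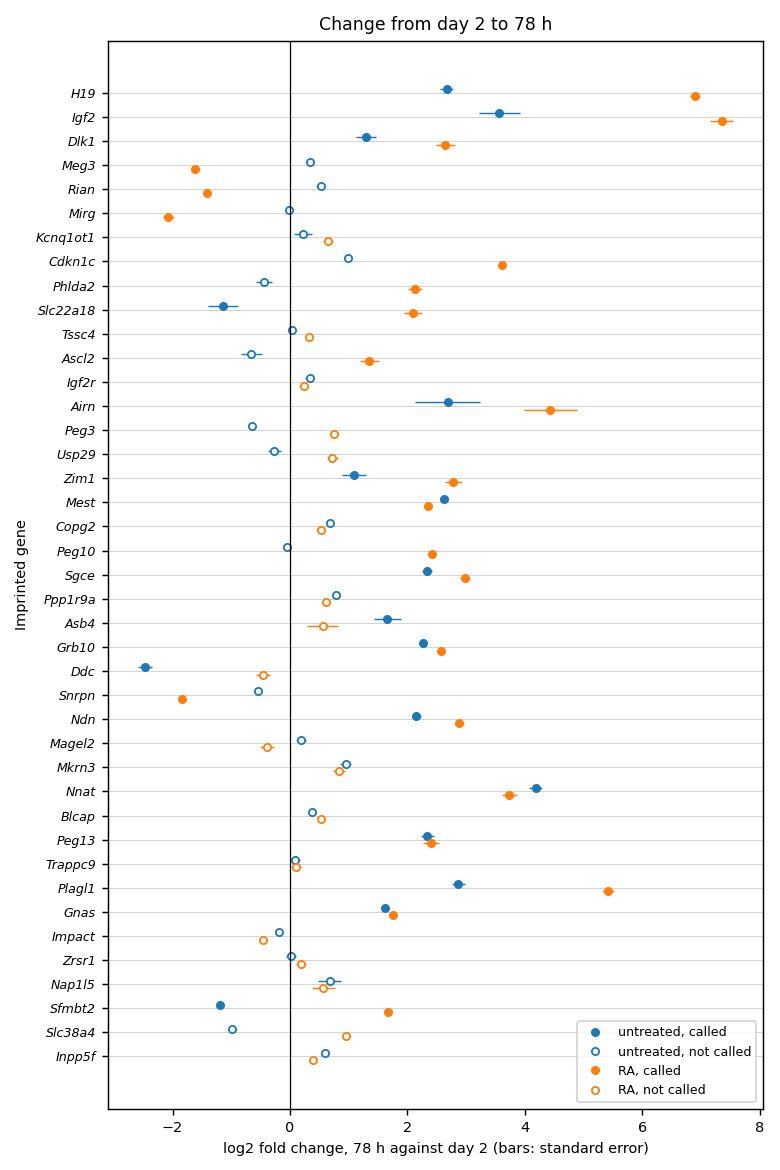
Log2 fold change (bars, standard error) of the 41 imprinted genes from day 2 to 78 h without RA and with RA, filled where called. Nnat, Mest, Grb10, Ndn, Gnas and Peg13 lie close together in both arms, and H19, Igf2, Cdkn1c, Peg10 and Plagl1 lie further right with RA.

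The order of levels per kilobase of exon changed with time and with RA. At day 2 Snrpn (82.1 ± 0.26 CPM per kilobase, SD, n = 3) and Peg10 (78.3 ± 1.9) led, followed by Mest (61.6 ± 1.1). At 78 h without RA Mest led at 382 ± 30 CPM per kilobase (SD), ahead of Nnat at 109 ± 16 and Grb10 at 89.0 ± 7.6, and the difference between Nnat and Grb10 was close to the SD of Nnat. With RA the order was Peg10 (419 ± 39), Mest (313 ± 17), H19 (208 ± 9.0) and Cdkn1c (179 ± 12). Snrpn was at rank 15 there, at 22.9 ± 2.4 CPM per kilobase.

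Proteins that set or guard imprints were compared as a list of 20 genes, all tested. Dnmt3b, a de novo DNA methyltransferase, fell under RA in all 7 comparisons, with log2 fold changes of -2.99 ± 0.06 at 18 h and -2.82 ± 0.12 at 78 h, and Dnmt3a fell from 18 h to 54 h. At 78 h under RA 1 of the 20 rose (Dnmt3l) and 1 fell (Dnmt3b), against 7.66% up and 4.03% down among all tested genes. From day 2 to 78 h, 10 of the 20 fell and 1 rose (Tet3) without RA (all genes 13.6% down and 20.3% up). With RA 9 fell and 1 rose (Tet3), where all genes gave 14.5% down and 22.9% up. Zfp57, which encodes the protein whose binding letters are marked above, fell by 2.27 without RA and by 2.15 with RA on the log2 scale. A further list of 26 imprinted genes outside the 43 gave 5 rises and 3 falls of 21 tested at 78 h under RA. The all-gene shares there were 7.66% up and 4.03% down. Snhg14, the long transcript beyond Snrpn, fell at every time from 18 h to 78 h (-1.30 ± 0.14 at 18 h and -1.27 ± 0.19 at 78 h). Calcr, a hormone receptor gene of the Peg10 region, fell at 5 times (-1.74 ± 0.18 at 18 h). Dio3, a thyroid hormone deiodinase gene of the Dlk1 domain, rose at 4 times (4.496 ± 0.24 at 78 h). Ins2, an insulin gene beside Igf2, rose at 5 times. At 18 h Ins2 held 2, 2 and 1 counts untreated and 28, 23 and 26 counts with RA. It therefore passed the filter on low counts there through the RA libraries.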

How the data were processed

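RNA was sequenced from 45 libraries of R1 organoids in 15 groups of 3, as given in the sample titles. The authors trimmed reads with Trim Galore 0.5.0, filtered them with Bowtie2 2.3.4.1, aligned them to GRCm38 with STAR and counted them per gene with featureCounts (Subread 1.6.2). The deposited values are these counts, not normalized. The strand setting of counting is not given in the sources used here. The labels' treatment text gives another unit for the RA dose and slightly other late times than the titles and design text, which were followed.

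CPM values were computed from the counts with TMM factors over all 45 libraries. For a comparison, only its 6 libraries entered the fit in edgeR 4.0.16 (R 4.3.3): TMM, filterByExpr (minimum count 10, total 15), glmQLFit and glmQLFTest, with Benjamini-Hochberg adjustment over all tested genes. The standard error is the log2 fold change divided by the root of F. Gene positions, exon lengths and overlaps came from GENCODE M21, which is not the release the authors counted on. Promoter windows came from RefSeq. The 34 imprinted genes with a window were matched by symbol.

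The genes, lists and tests were chosen with earlier results of these data known. Any of the 43 genes could be named, and values in every library are given for genes called at 3 or more RA times or in both untreated 30 h comparisons, and for the Dlk1-Meg3 and Igf2-H19 domains. Alternatives were RLE size factors, library totals, no filter, DESeq2 1.42.0, 1 fit of all 45 libraries, the replicate number as a block, each library left out, and membership by CPM from library totals. The fits were tested on simulated counts. All 45 pairs of replicates differed by more than sampling noise. Equal replicate numbers are not stated to share a culture, and p-values measure the spread between these libraries. At 66 h the deviations of equally numbered libraries correlated in every pair (r = 0.465, 0.166 and 0.209). All r were positive too at 30 h (0.0734, 0.199 and 0.206), 54 h (0.104, 0.0398 and 0.0499) and 78 h (0.28, 0.0245 and 0.302). Some were negative at 8, 18 and 42 h.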

Additional observations from a re-analysis of the deposited data

Results flagged for a closer look

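Among imprinted genes called at a time without overlap between the arms, 4 had RA effects in opposite directions, each at a time without overlap. That is 9.76% of the 41 genes, against 5.06% of the 15901 tested genes with a mean of at least 0.5 CPM, by the same rule. Ppp1r9a, Blcap, Impact and Nap1l5 also had both directions without overlap, but they were called at no time and are not among the 4. The difference between the times was not tested for any of them. Ascl2 had a log2 fold change of 2.50 at 66 h and -1.33 at 8 h. Mest had 2.39 at 30 h and -0.27 at 78 h. Nnat had 2.05 at 30 h and -0.44 at 78 h. Usp29 had 1.00 at 78 h and -0.16 at 18 h. Its 18 h libraries were close, at 7.49, 7.51 and 7.34 CPM untreated and 7.29, 5.40 and 7.18 CPM with RA. With 1 library left out that value ranged from -0.24 to -0.03. The negative values of the 4 genes were not called, since each missed the limit on the adjusted p or on the fold. For Mest and Nnat the 30 h value rests on libraries of which 5 of 6 were poor in Y-chromosome genes, and without RA 30 h replicate 2 it was 2.07 for Mest and 1.80 for Nnat.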

How the results depend on the processing

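The number of imprinted genes called stayed within 1.5 times its value under 60 of 66 pairs of comparison and alternative other than leaving out a library. The 6 exceptions were at 8 h, where 1 gene was called, and 0 with library totals, 2 without the filter, 3 with DESeq2, 0 with the replicate block and 2 in the fit of all 45 libraries, and at 30 h, where 12 were called and 19 in the fit of all 45 libraries. With 1 library left out in turn, the counts ranged from 0 to 2 at 8 h (2 without RA replicate 3 and 0 without any other), 10 to 11 at 18 h, 9 to 16 at 30 h, 21 to 23 at 42 h, 18 to 20 at 54 h and 19 to 21 at 78 h, and stayed at 20 at 66 h. They ranged from 5 to 7 for untreated 30 h against 18 h and from 15 to 20 for untreated 78 h against day 2, and stayed at 6 for untreated 42 h against 30 h and at 23 for RA 78 h against day 2. For single genes, 1035 values under the other alternatives kept their direction and side of the threshold, 13 lost the call, 15 gained one and 4 changed sign. With a library left out, Mirg at 8 h lost its call in all 6 fits, and Asb4 at 30 h and Ddc at 54 h in 5 each. Library totals moved the all-gene median of the log2 fold change to 0.18 at 30 h and 0.14 at 18 h. The cause of these changes was not tested.

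Taking the replicate number as a block gave 0 called genes at 8 h, 19 at 54 h (Ddc lost) and 5 for untreated 30 h against 18 h (Slc22a18 lost), and left the genes called in 7 other comparisons as they were, 66 h included. At 30 h the count stayed at 12, with Asb4 lost (-1.25, adjusted p = 0.011) and Igf2 gained (4.73, adjusted p = 0.0033). In that fit the 8 h log2 fold change of H19 was -0.16, of Sfmbt2 -0.53 and of Sgce -0.016, against 0.29, 0.11 and 0.12 without the block, none of them called. The 8 h value of H19 ranged from -0.15 to 0.82 when a library was left out, of Sfmbt2 from -0.29 to 0.65 and of Sgce from -0.18 to 0.48, each negative without RA replicate 1 or 2 and highest without RA replicate 3. The 30 h value of Phlda2 ranged from -0.15 to 1.03 and of Ascl2 from -1.07 to 1.24, both negative without RA replicate 2. Peg10 from day 2 to untreated 78 h was 0.074 with library totals and -0.059 with TMM factors.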
